A study of Mus musculus with 24 samples.

Results

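The 41 genes described here are the endothelial genes of the liver, the genes by which sinusoidal and other vascular cells are usually recognised, followed in whole mouse liver. They were chosen by name, as every spot of the array whose gene name was on the list, and all 41 were found among the 17215 genes tested. The list was drawn up with earlier results of these data known, so its counts beside the shares of all genes are a description. The study used C57Bl/6J male mice of 8 weeks, kept under equal periods of light and dark on a Safe 04 chow diet, in which Ppara was deleted in the liver (PPARaLKO, here LKO) or intact there (PPARaLWT, here LWT), and which were fed freely or fasted for 24 h. All were killed at ZT16, which is 16 h after lights on, so that fed animals were in their active phase. The labels name no driver for the deletion, so which liver cells lost Ppara is not given in the sources used here. RNA of each liver was hybridised to a 1-colour Agilent array, giving 24 arrays of 22 animals: 5 LWT fed, 5 LWT fasted, 6 LKO fed and 6 LKO fasted, with 1 animal of each LWT group hybridised 2 times. The series text instead counts 24 mice in 4 groups of 6. The animal numbers in the labels are used throughout.

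Liver sinusoidal endothelial cells line the capillaries through which blood passes the hepatocytes. They are perforated, lack a continuous basement membrane, and take up waste molecules from blood through scavenger receptors and lectins. They keep their identity through vascular endothelial growth factor, angiopoietin, bone morphogenetic protein, Notch and Wnt signals, and they send signals of their own, called angiocrine, that set zonation and iron handling in hepatocytes. PPARα, the product of Ppara, is the nuclear receptor that drives fatty acid oxidation in the fasting liver. Which liver cells respond to its loss cannot be read from whole tissue: fewer endothelial cells and less RNA of these genes per cell cannot be told apart in these data.

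Levels are given as normalized log2 intensities, that is log2 of the processed spot intensity minus the 75th percentile of its array, so that 0 is the brightness at that percentile, and a difference of 1 is a doubling. A probe's level depends on its sequence, so levels of different genes are not set against each other. Changes are differences of group means on that scale with their standard error (SE), and a gene is called higher or lower where limma's moderated test gave an adjusted p below 0.05 after Benjamini-Hochberg adjustment over all 17215 genes. Nothing in the labels says more of how animals were bred or housed than stated, so p-values measure the spread between these animals. In the 24 arrays the 75th percentile was 309.7 to 412.6 intensity units and 50.03% to 58.82% of probes were well above background. Of the 41 genes, 39 were well above background in all 22 animals, Flt4 in 21 and Dll4 in 16, and each was so in at least 1 animal of each group. The targeted gene itself was lower in LKO livers: Ppara stood at 5.84 ± 0.21 (SD, n = 5) in LWT fed, 6.48 ± 0.13 (SD, n = 5) in LWT fasted, 5.17 ± 0.37 (SD, n = 6) in LKO fed and 5.60 ± 0.12 (SD, n = 6) in LKO fasted livers, a difference of -0.67 ± 0.14 (adjusted p = 0.00609) fed and -0.88 ± 0.14 (adjusted p = 4.6e-05) fasted. Whether its probe lies in the deleted part is not given, so this is a weak check of the labels.

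To show the sequence next to the genes that differ most, the 250 bases before the transcription start were read from RefSeq's promoter table (GRCm38.p6). Of the 6 genes with the largest difference between their fasting changes in the genotypes, 4 have an entry there, and these are printed 5′ to 3′ on the strand of the gene. The place of Dll4 and Flt4 among the 6 depends on how background is treated. With another background correction (normexp) their differences were -0.28 and -0.36, against -1.16 and -0.92 here. The Dll4 promoter is chr2:119325534-119325783 (plus strand), that of Tek chr4:94739039-94739288 (plus strand), that of Clec4g chr8:3720652-3720901 (minus strand) and that of Flt4 chr11:49609429-49609678 (plus strand). Capitals mark AGGAAG, a core bound by ETS factors such as ERG, and ACAAAG, a core bound by SOX factors, on either strand; AGATAA and AGGTCA, described next, do not occur in these 4.
Dll4: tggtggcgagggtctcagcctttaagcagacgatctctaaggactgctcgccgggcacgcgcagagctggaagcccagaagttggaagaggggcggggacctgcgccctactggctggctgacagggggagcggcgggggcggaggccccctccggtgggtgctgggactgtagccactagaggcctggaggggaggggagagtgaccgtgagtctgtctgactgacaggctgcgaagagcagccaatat
Tek: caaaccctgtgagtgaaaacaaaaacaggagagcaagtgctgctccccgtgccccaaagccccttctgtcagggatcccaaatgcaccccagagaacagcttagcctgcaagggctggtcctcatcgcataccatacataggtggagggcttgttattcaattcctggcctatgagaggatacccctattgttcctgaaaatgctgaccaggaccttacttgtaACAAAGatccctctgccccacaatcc
Clec4g: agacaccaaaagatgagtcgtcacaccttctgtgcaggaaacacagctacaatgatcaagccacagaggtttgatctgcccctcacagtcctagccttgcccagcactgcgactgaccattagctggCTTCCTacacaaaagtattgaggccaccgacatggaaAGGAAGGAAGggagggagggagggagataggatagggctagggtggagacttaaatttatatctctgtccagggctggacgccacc
Flt4: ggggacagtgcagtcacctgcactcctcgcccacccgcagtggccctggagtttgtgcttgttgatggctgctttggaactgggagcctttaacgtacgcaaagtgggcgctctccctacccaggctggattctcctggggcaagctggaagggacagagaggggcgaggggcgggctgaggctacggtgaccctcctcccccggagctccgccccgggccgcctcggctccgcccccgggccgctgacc
AGGAAG occurred 3 times before Clec4g, of which 2 overlap by their outer letters, and ACAAAG 1 time before Tek, and neither occurred before Dll4 or Flt4. Over the endothelial genes, 22 of 41 had an entry, with 26 promoters, and AGGAAG was present in 13 of them (50%), against 29.5% of all 32851 promoters of the same length. ACAAAG was present in 3 of the 26 (11.5%, against 16.5% of all), AGATAA, the core bound by GATA factors, in 1 (3.85%, against 9.99%), and AGGTCA, the half-site bound by nuclear receptors such as PPARα, in 7 (26.9%, against 14.0%). Motifs were searched on both strands, each counted by itself where letters overlapped. Such a match describes letters and is not a binding site.

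The 4 groups differed as follows. In fed animals no gene was called between the genotypes. Fasting raised most of the called genes in LWT livers and lowered most of them in LKO livers. Relative to the signal of the array, 31 of the 41 genes were called lower in fasted LKO than in fasted LWT livers. The mean level of the 41 genes in each animal shows the order of the groups: it was 0.70 to 1.08 in LWT fed animals (median 1.00), 1.03 to 1.35 in LWT fasted (median 1.33), 0.63 to 1.13 in LKO fed (median 0.98) and 0.60 to 0.89 in LKO fasted (median 0.82). The fasted LKO animals all lay below the fasted LWT animals, while the fed groups lay over each other.

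**Figure D1:**
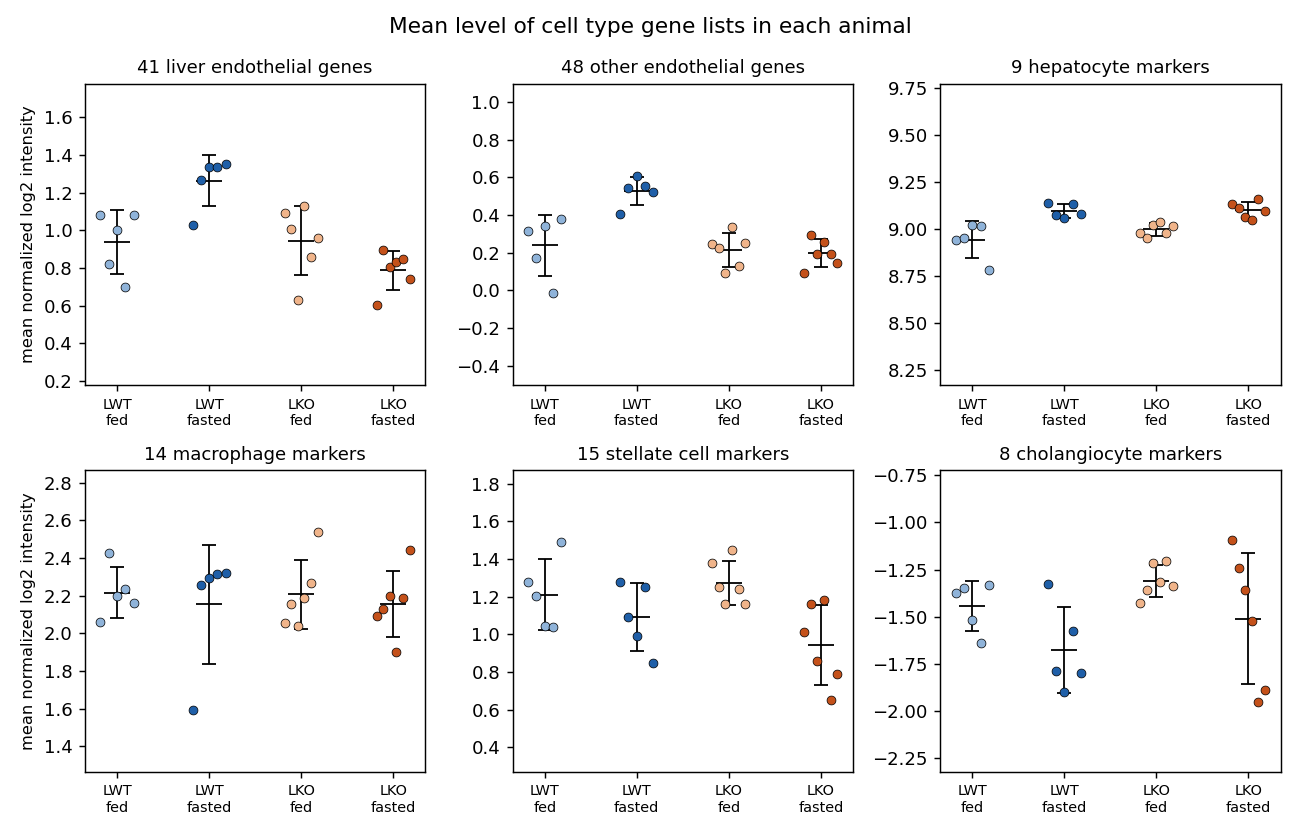
Mean normalized log2 intensity of a gene list in each animal (points), with the group mean and SD (bars), for the 41 liver endothelial genes, 48 other endothelial genes and markers of 4 other liver cell types. Each panel spans the same log2 range. In the first panel the 5 LWT fasted animals sit between 1.03 and 1.35 and the 6 LKO fasted animals between 0.60 and 0.89, while the hepatocyte panel shows LWT fasted and LKO fasted animals at like levels.

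Fasting in LWT livers raised 20 of the 41 genes and lowered 1, against 23.1% of all genes tested called higher and 21.2% called lower. The median change of the 41 was 0.29, and that of all genes 0.01. Fed and fasted LWT animals did not overlap for 10 genes that were higher and 1 that was lower, a property that 34.3% of all genes had. Fasting in LKO livers raised 3 of the 41 and lowered 15, against 23% of all genes called higher and 26.7% called lower, with a median change of -0.21 (-0.04 over all genes). There, 2 genes lay apart upward and 9 downward, against 27.3% of all genes apart in either direction.

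Between genotypes, no gene of the 41 was called in fed animals by limma's test, where 1.77% of all genes were called higher in LKO and 2.25% lower; 1 of the 41 had an unadjusted p below 0.05, against 15.8% of all genes, and the smallest adjusted p was 0.253. The fed groups overlapped for all 41, while 3.69% of all genes did not overlap. In fasted animals, 1 of the 41 was higher in LKO and 31 were lower, against 16.5% of all genes called higher and 21.4% lower; the median difference was -0.44 (-0.03 over all genes). The fasted genotypes did not overlap for 24 of the 41, each lower in LKO, against 25.3% of all genes. The difference of the fasting changes, that in LKO minus that in LWT, was called for 21 of the 41, each more negative in LKO, against 7.5% of all genes called higher and 11.1% lower, and its median was -0.48 (-0.04 over all genes). The comparisons share animals: the fasted difference and both fasting changes use the same fasted livers.

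By the calls in both genotypes and of the difference itself, the 41 genes fell into 9 patterns. In 8 genes (Ehd3, Eng, Flt1, Flt4, Oit3, Pecam1, Ptprb and Robo4) fasting raised the level in LWT, made no called change in LKO, and the difference was called. In 6 (Dll4, Fcgr2b, Gpr182, Kdr, Sox17 and Tie1) no change was called in LWT, the level fell in LKO, and the difference was called. In 5 (Clec4g, Emcn, Mrc1, Sox18 and Tek) the level rose in LWT and fell in LKO. Lyve1 rose in both genotypes, less so in LKO, and Cldn5 fell in both, more so in LKO. Esam and Thbd rose in both and Bmp2, Ramp2, Rspo3 and Stab2 in LWT, with no called difference. Dnase1l3, Gata4 and Stab1 fell in LKO with no called difference. The remaining 11 genes (Aqp1, Cdh5, Egfl7, Erg, Icam2, Notch1, Plvap, Sox7, Vwf, Wnt2 and Wnt9b) were called in neither fasting change nor in the difference.

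**Figure D2:**
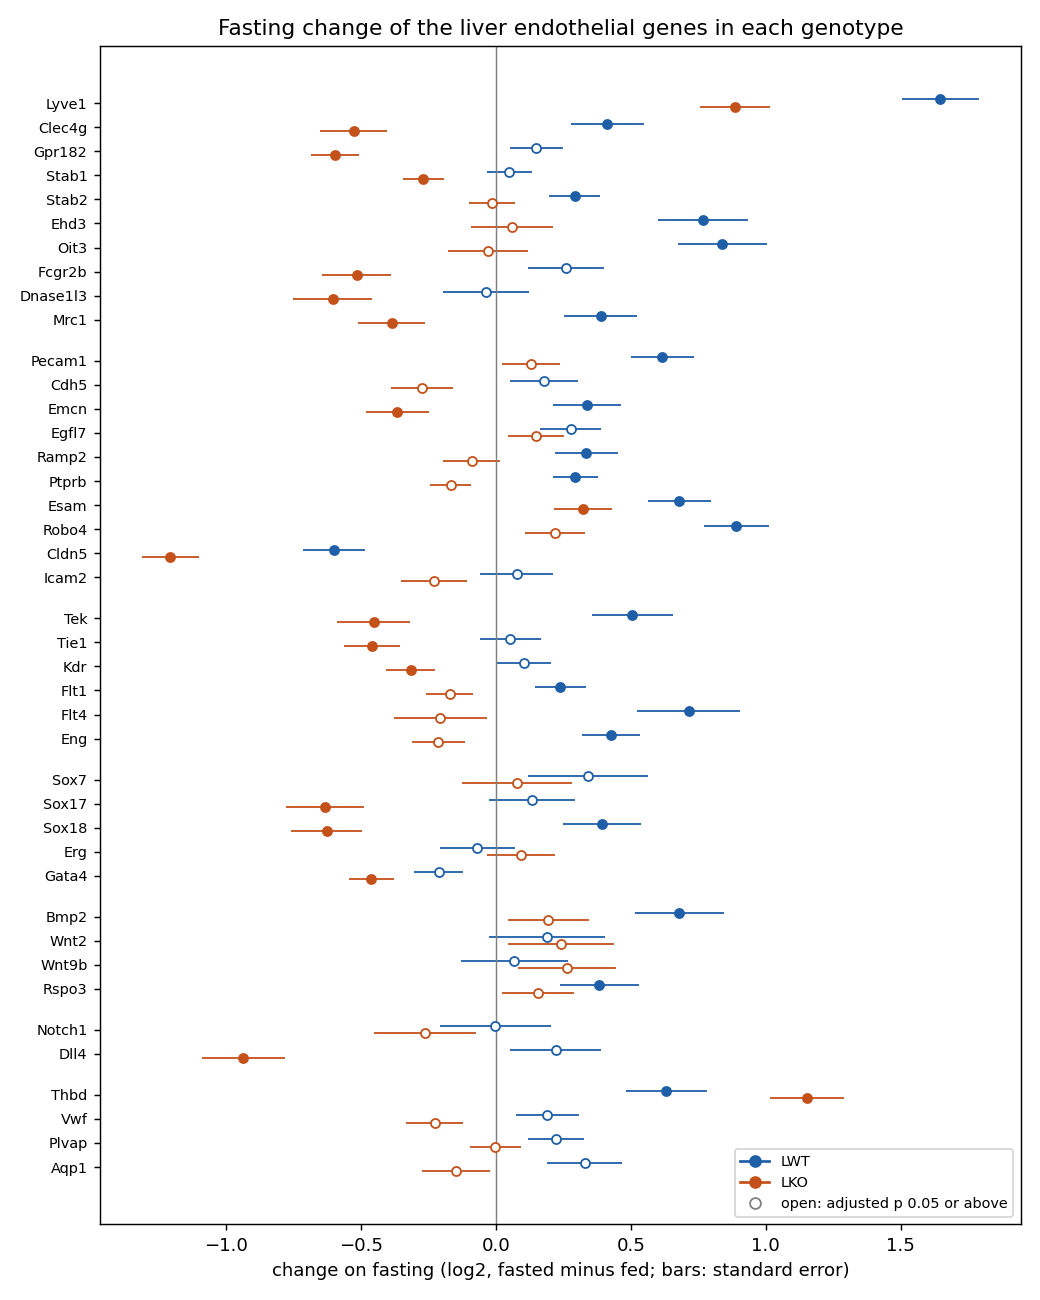
Change on fasting (log2, fasted minus fed, with SE) of each of the 41 genes in LWT and in LKO livers, grouped by role; filled points have an adjusted p below 0.05. The LWT points lie mostly right of 0 (20 called higher, 1 lower) and the LKO points mostly left of it (3 called higher, 15 lower).

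Some animals stood apart. LWT fasted replicate 1, one of the animals hybridised 2 times, was the lowest of its group in 33 of the 41 genes, with a mean level of 1.03 against 1.27 to 1.35 in the other 4. Its mean level over 14 macrophage markers was also low, at 1.59 against 2.26 to 2.32 in the other 4. Without it, the fasting change in LWT was called for 24 genes higher and 1 lower, the fasted genotype difference for 1 higher and 31 lower, and the difference of the fasting changes for 26, all lower. LKO fed replicate 3 was the lowest of its group in 31 of the 41. Its mean level over 8 neutrophil and monocyte markers was 0.89, against -0.09 to 0.30 in the other 5, and over 15 Wnt-dependent pericentral hepatocyte genes 2.20, against 2.82 to 3.00. Without it, 3 genes were called higher and 22 lower on fasting in LKO, and 28 in the difference of the fasting changes. LWT fed replicate 4 was the lowest of its group in 29 of the 41, with a mean level of 0.70 against 0.82 to 1.08. Leaving it out lowered the calls for fasting in LWT from 20 higher and 1 lower to 13 higher and 1 lower. LKO fasted replicate 1 was the lowest of its group in 22 of the 41, with a mean level of 0.60 against 0.74 to 0.89. Each of the 3 slides, which were also scanned as separate runs, held 2 arrays of each group. Of the called genes, 21 of 21 (fasting in LWT), 18 of 18 (fasting in LKO), 32 of 32 (fasted genotypes) and 21 of 21 (difference) had the same direction within each of the 3 slides. The calls were made on the arrays of these same slides, so this describes them and is not a replication. Egfl7, Notch1, Plvap, Rspo3 and Wnt2, not called between fasted genotypes, also kept their direction in all 3 slides. The median fasted genotype difference of the 41 was -0.38, -0.48 and -0.46 within slides 1, 2 and 3, and the median fasting change in LKO was -0.01, -0.33 and -0.14.

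**Figure D3:**
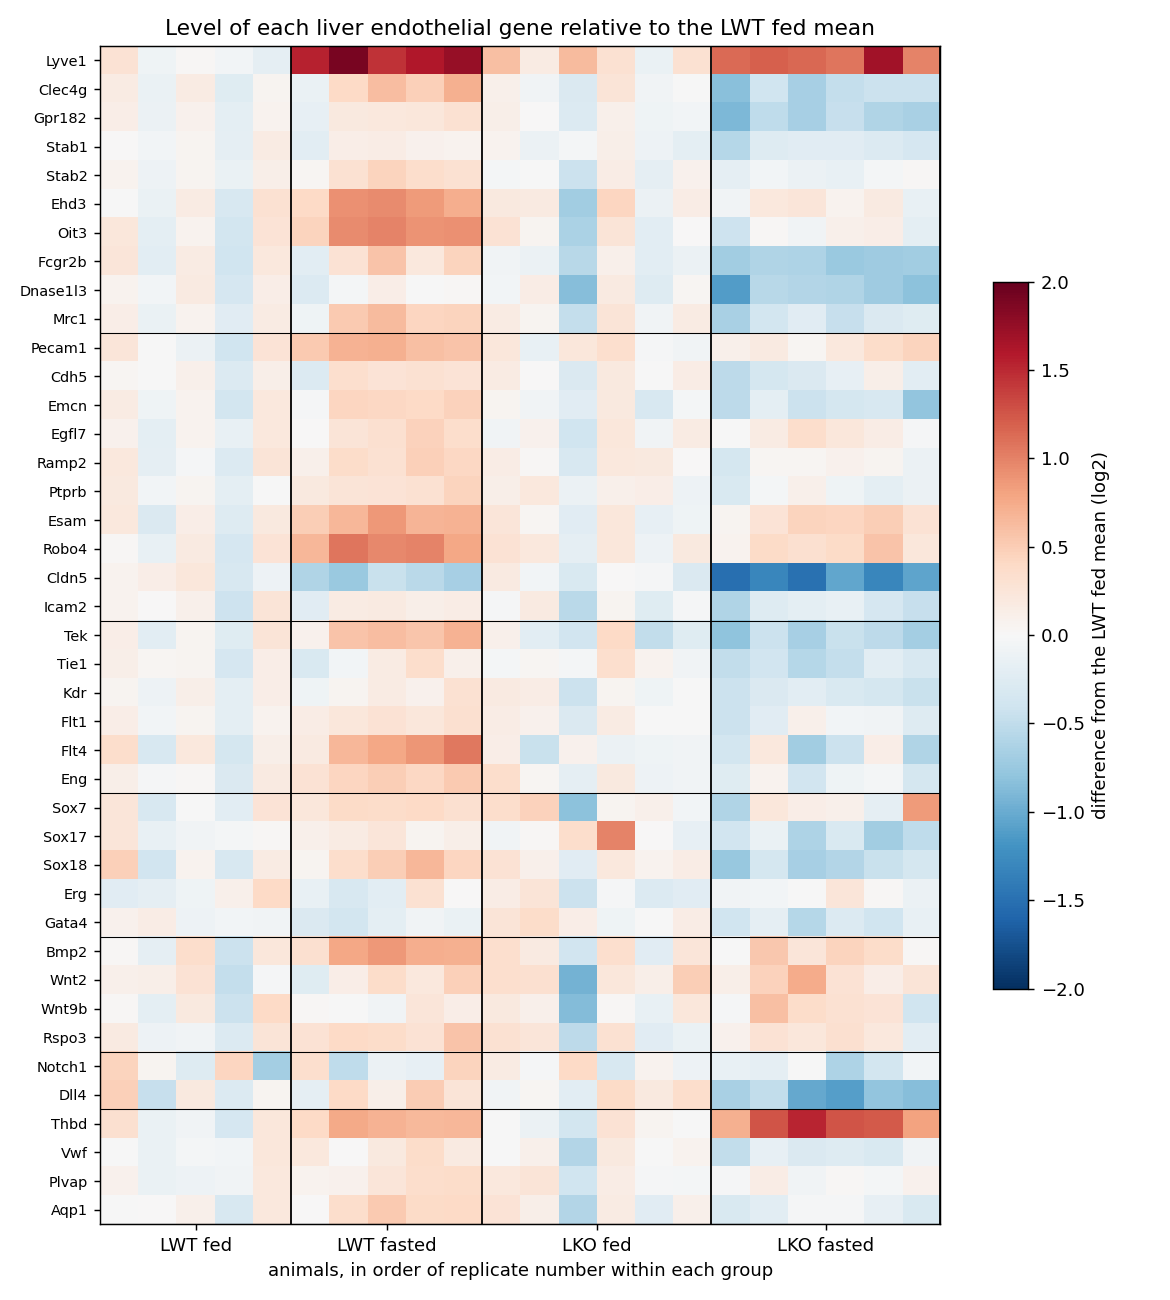
Level of each of the 41 genes in each of the 22 animals, as the difference from the LWT fed mean (log2, colour scale from -2 to 2). The LWT fasted columns are mostly red and the LKO fasted columns mostly blue, with Lyve1 and Thbd red and Cldn5 blue in the fasted animals of both genotypes.

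The 10 scavenger receptors, lectins and related genes of sinusoidal cells were all lower in fasted LKO than in fasted LWT livers. Of the 10, 6 rose and 0 fell on fasting in LWT, 1 rose and 6 fell in LKO, and 7 differed between their fasting changes. Their median fasted genotype difference was -0.73. The shares of all genes called are the same for this list and those that follow. They were 23.1% higher and 21.2% lower on fasting in LWT, and 23% and 26.7% in LKO. Between fasted genotypes they were 16.5% and 21.4%, and for the difference of the changes 7.5% and 11.1%.

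Lyve1, the hyaluronan receptor of lymphatic and sinusoidal endothelium (probe at chr7:117994171-117994230, mm9, minus strand), had the largest fasting change of the 41 in LWT livers. Its level was -1.25, -1.64, -1.52, -1.60 and -1.73 in the LWT fed animals and -0.01, 0.36, -0.09, 0.06 and 0.19 in the LWT fasted animals. In LKO animals it was -1.68 to -0.91 with a median of -1.24 when fed and -0.56 to 0.14 with a median of -0.41 when fasted. Every fasted animal of a genotype was above every fed animal of it, but the rise was smaller in LKO. Lyve1 rose by 1.65 ± 0.14 (adjusted p = 1.96e-08), a 3.13-fold rise, in LWT and by 0.89 ± 0.13 (adjusted p = 1.04e-05), 1.85-fold, in LKO. The difference of these changes was -0.76 ± 0.19 (adjusted p = 0.00931). In fasted animals Lyve1 was lower in LKO, differing by -0.44 ± 0.14 (adjusted p = 0.014), with 1 LKO animal, replicate 5, inside the LWT range. In fed animals the Lyve1 difference was 0.32 ± 0.14 (adjusted p = 0.253).

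Clec4g, which codes for the sinusoidal C-type lectin LSECtin (probe at chr8:3716182-3716241, mm9, minus strand), moved in opposite directions by its brighter probe. It stood at 5.07, 4.78, 5.08, 4.67 and 4.96 in LWT fed and 4.79, 5.30, 5.53, 5.39 and 5.62 in LWT fasted livers. The LKO range was 4.63 to 5.18 with a median of 4.87 fed and 4.08 to 4.51 with a median of 4.46 fasted. All fasted LKO animals were below all others of the study, and LWT fasted replicate 1 lay inside the fed range. The change was 0.41 ± 0.14 (adjusted p = 0.0176) in LWT and -0.53 ± 0.12 (adjusted p = 0.00139) in LKO, and fasted LKO livers differed from fasted LWT livers by -0.95 ± 0.13 (adjusted p = 8.1e-06), 1.94-fold. The rise in LWT no longer passed without any 1 of 2 animals, being 0.34 with adjusted p = 0.0558 without LWT fasted replicate 5.

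Gpr182, a receptor of sinusoidal endothelium that takes up chemokines (probe at chr10:127186757-127186816, mm9, minus strand), fell in LKO and made no called change in LWT. Gpr182 was 3.58, 3.33, 3.53, 3.25 and 3.51 in LWT fed and 3.27, 3.63, 3.65, 3.66 and 3.75 in LWT fasted animals. It was 3.17 to 3.56 with a median of 3.42 in LKO fed and 2.55 to 2.99 with a median of 2.82 in LKO fasted animals, the latter all below the other 3 groups. The fasting change was 0.15 ± 0.10 (adjusted p = 0.231) in LWT and -0.60 ± 0.09 (adjusted p = 1.36e-05) in LKO, a difference of -0.75 ± 0.13 (adjusted p = 0.00061). Fasted LKO livers differed from fasted LWT livers by -0.78 ± 0.09 (adjusted p = 1.71e-06).

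Stab1 and Stab2 code for the stabilins, large scavenger receptors that clear hyaluronan and modified proteins from blood. Stab1 stood at 2.99, 2.92, 3.03, 2.80 and 3.15 in LWT fed and 2.77, 3.12, 3.12, 3.07 and 3.06 in LWT fasted livers. In LKO livers Stab1 was 2.78 to 3.09 with a median of 2.90 fed and 2.41 to 2.75 with a median of 2.71 fasted. The LWT groups overlapped, and the LKO fasted animals were below both the LKO fed and the LWT fasted ones. Stab1 changed by 0.05 ± 0.08 (adjusted p = 0.665) in LWT and -0.27 ± 0.08 (adjusted p = 0.00573) in LKO, and the fasted genotype difference was -0.37 ± 0.08 (adjusted p = 0.0011). Stab2 was 3.83, 3.65, 3.81, 3.63 and 3.89 in LWT fed and 3.80, 4.07, 4.20, 4.12 and 4.07 in LWT fasted livers. For Stab2 the LKO range was 3.33 to 3.91 with a median of 3.74 fed and 3.58 to 3.78 with a median of 3.67 fasted. By the brightest probe Stab2 rose by 0.29 ± 0.09 (adjusted p = 0.015) in LWT, with -0.02 ± 0.09 (adjusted p = 0.899) in LKO and a fasted genotype difference of -0.38 ± 0.09 (adjusted p = 0.00211). For neither gene was the difference of the fasting changes called, at -0.32 ± 0.11 (adjusted p = 0.054) for Stab1 and -0.31 ± 0.13 (adjusted p = 0.0974) for Stab2.

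Ehd3, a protein of endosomal membrane traffic, and Oit3, a secreted liver protein of sinusoidal cells, rose in LWT with no called change in LKO. Ehd3 was 3.21, 3.09, 3.38, 2.90 and 3.53 in LWT fed and 3.62, 4.14, 4.16, 4.08 and 3.94 in LWT fasted animals. Its LKO levels were 2.52 to 3.64 with a median of 3.39 fed and 3.07 to 3.47 with a median of 3.35 fasted. The LWT groups were apart, by little, and the LKO groups overlapped, with LKO fed replicate 3 as the lowest animal. Ehd3 changed by 0.77 ± 0.17 (adjusted p = 0.000824) in LWT and 0.06 ± 0.15 (adjusted p = 0.768) in LKO, with -0.68 ± 0.16 (adjusted p = 0.00201) between fasted genotypes. The difference of its changes, -0.70 ± 0.23 (adjusted p = 0.0339), no longer passed without any 1 of 12 animals, and was -0.62 with adjusted p = 0.0643 without LWT fed replicate 4. Oit3 was 1.87, 1.46, 1.73, 1.28 and 1.92 in LWT fed and 2.10, 2.60, 2.64, 2.55 and 2.56 in LWT fasted animals. In LKO animals Oit3 was 1.02 to 1.94 with a median of 1.68 fed and 1.24 to 1.78 with a median of 1.63 fasted. Again the LWT groups were apart and the LKO groups overlapped. Oit3 changed by 0.84 ± 0.16 (adjusted p = 0.000286) in LWT and -0.03 ± 0.15 (adjusted p = 0.893) in LKO, a difference of -0.87 ± 0.22 (adjusted p = 0.00946).

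Fcgr2b codes for the inhibitory IgG receptor with which sinusoidal cells clear small immune complexes, and is also made by macrophages and B cells. Its levels were 2.40, 1.95, 2.33, 1.76 and 2.37 in LWT fed and 1.95, 2.45, 2.72, 2.38 and 2.61 in LWT fasted livers. Those in LKO livers were 1.60 to 2.26 with a median of 2.04 fed and 1.42 to 1.56 with a median of 1.46 fasted. The 6 fasted LKO animals lay within a narrow band below all other animals. Fcgr2b changed by 0.26 ± 0.14 (adjusted p = 0.144) in LWT and -0.51 ± 0.13 (adjusted p = 0.00221) in LKO and differed between fasted genotypes by -0.94 ± 0.13 (adjusted p = 1.5e-05). Dnase1l3, a nuclease that degrades extracellular DNA, changed by -0.04 ± 0.16 (adjusted p = 0.885) in LWT and -0.60 ± 0.15 (adjusted p = 0.00168) in LKO, with -0.70 ± 0.15 (adjusted p = 0.00114) between fasted genotypes. Mrc1, the mannose receptor, which macrophages carry too, changed by 0.39 ± 0.14 (adjusted p = 0.0256) in LWT and -0.39 ± 0.12 (adjusted p = 0.0138) in LKO, with -0.76 ± 0.13 (adjusted p = 0.000115) between fasted genotypes. Its rise in LWT did not pass without any 1 of 4 animals, and was 0.33 with adjusted p = 0.0733 without LWT fasted replicate 3.

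**Figure D4:**
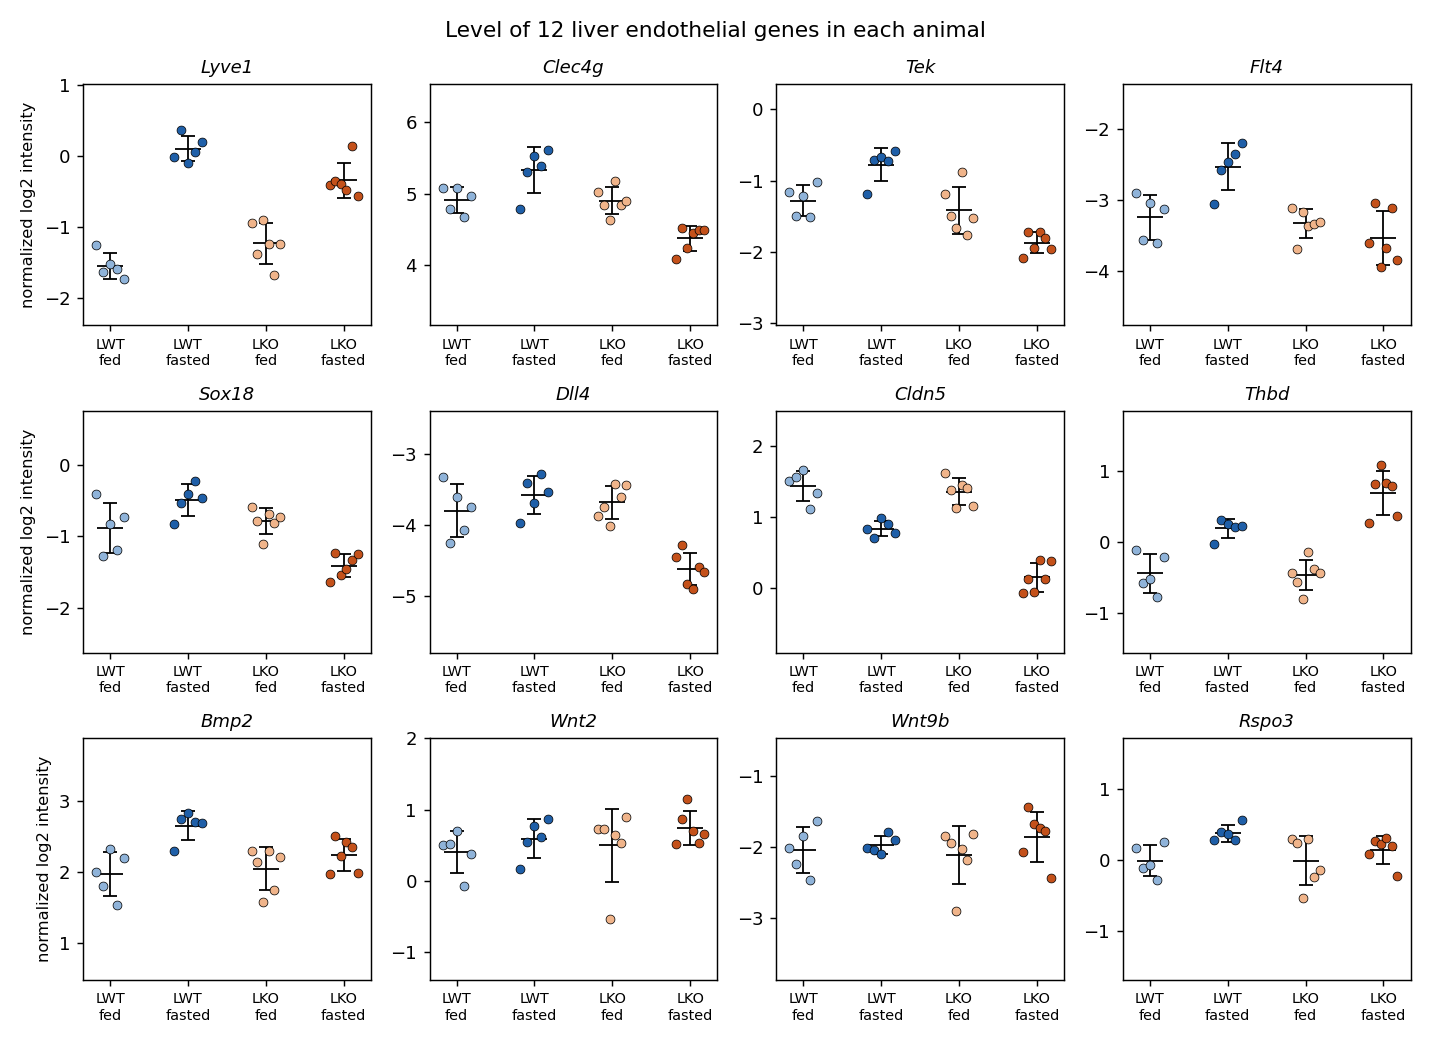
Normalized log2 intensity of 12 of the 41 genes in each animal (points), with the group mean and SD (bars); each panel spans the same log2 range. Clec4g and Dll4 show all LKO fasted animals below all others, Tek and Sox18 show them below the LWT fasted animals, Lyve1 and Thbd rise on fasting in both genotypes, Cldn5 falls in both, and Wnt2 and Wnt9b overlap in all 4 groups.

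The 10 junction, adhesion and surface genes are shared by most blood vessels. Of them, 6 rose and 1 fell on fasting in LWT, 1 rose and 2 fell in LKO, 9 were lower in fasted LKO than in fasted LWT livers, and 5 differed between their fasting changes.

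Pecam1, an adhesion molecule of endothelial junctions, was -1.78, -2.02, -2.13, -2.41 and -1.74 in LWT fed and -1.49, -1.32, -1.31, -1.42 and -1.45 in LWT fasted livers. In LKO it was -2.17 to -1.69 with a median of -1.91 fed and -1.97 to -1.58 with a median of -1.82 fasted. The LWT fasted animals were above all other animals. Pecam1 changed by 0.62 ± 0.12 (adjusted p = 0.000232) in LWT (0.37 with normexp background correction) and 0.13 ± 0.11 (adjusted p = 0.332) in LKO, with -0.39 ± 0.11 (adjusted p = 0.00864) between fasted genotypes. The difference of its changes, -0.49 ± 0.16 (adjusted p = 0.038), did not pass without any 1 of 12 animals and was -0.46 with adjusted p = 0.0684 without LWT fed replicate 3. Cdh5, which codes for VE-cadherin of the adherens junction, was 0.81, 0.76, 0.87, 0.50 and 0.88 in LWT fed and 0.49, 1.09, 1.03, 1.07 and 1.03 in LWT fasted livers. Its LKO levels were 0.48 to 0.96 with a median of 0.84 fed and 0.25 to 0.87 with a median of 0.52 fasted. All groups overlapped, LWT fasted replicate 1 lying far below the other 4 of its group. For Cdh5 the fasted genotype difference was called, -0.42 ± 0.12 (adjusted p = 0.00935), while the changes were 0.18 ± 0.13 (adjusted p = 0.264) in LWT and -0.27 ± 0.11 (adjusted p = 0.0535) in LKO.

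Robo4, a guidance receptor that stabilises vessels, was 2.66, 2.49, 2.82, 2.31 and 2.91 in LWT fed and 3.30, 3.71, 3.60, 3.62 and 3.41 in LWT fasted livers. The LKO levels were 2.46 to 2.92 with a median of 2.84 fed and 2.71 to 3.21 with a median of 2.99 fasted. Every fasted LWT animal was above every animal of the other groups. Robo4 changed by 0.89 ± 0.12 (adjusted p = 5.26e-06), 1.85-fold, in LWT and 0.22 ± 0.11 (adjusted p = 0.107) in LKO, a difference of -0.67 ± 0.16 (adjusted p = 0.00691).

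Cldn5, the claudin of endothelial tight junctions (probe at chr16:18778046-18778105, mm9, plus strand), was the only gene of the 41 called lower on fasting in both genotypes. It was 1.50, 1.56, 1.66, 1.11 and 1.33 in LWT fed and 0.83, 0.70, 0.98, 0.90 and 0.77 in LWT fasted livers. In LKO livers it was 1.13 to 1.62 with a median of 1.39 fed and -0.08 to 0.40 with a median of 0.13 fasted. Fed and fasted animals were apart in each genotype, and the fasted LKO animals were the lowest of all. Cldn5 changed by -0.60 ± 0.11 (adjusted p = 0.000247) in LWT and -1.21 ± 0.10 (adjusted p = 1.23e-08), 2.31-fold, in LKO, with -0.69 ± 0.11 (adjusted p = 5.06e-05) between fasted genotypes and a difference of the changes of -0.61 ± 0.16 (adjusted p = 0.00961).

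The other 6 surface genes are given by their changes. Emcn, which codes for the sialomucin endomucin, changed by 0.34 ± 0.13 (adjusted p = 0.0369) in LWT, -0.37 ± 0.12 (adjusted p = 0.0128) in LKO and -0.77 ± 0.12 (adjusted p = 4.49e-05) between fasted genotypes. Its rise in LWT did not pass without any 1 of 6 animals, and was 0.25 with adjusted p = 0.119 without LWT fed replicate 4. Ptprb codes for the phosphatase that acts on TIE2 and VE-cadherin, and changed by 0.29 ± 0.08 (adjusted p = 0.00715) in LWT, -0.17 ± 0.08 (adjusted p = 0.0768) in LKO and -0.40 ± 0.08 (adjusted p = 0.000493) between fasted genotypes. Esam, an adhesion molecule of endothelium and platelets, rose in both genotypes, by 0.68 ± 0.12 (adjusted p = 8.64e-05) in LWT and 0.32 ± 0.11 (adjusted p = 0.016) in LKO. Its fasted genotype difference of -0.35 ± 0.11 (adjusted p = 0.0191) did not pass without 1 animal, being -0.30 with adjusted p = 0.0594 without LWT fasted replicate 3. Ramp2, the accessory protein of the adrenomedullin receptor, rose by 0.34 ± 0.12 (adjusted p = 0.0242) in LWT, a call lost without any 1 of 4 animals (0.27 with adjusted p = 0.0767 without LWT fed replicate 4), with -0.09 ± 0.11 (adjusted p = 0.52) in LKO and -0.38 ± 0.11 (adjusted p = 0.0113) between fasted genotypes. Icam2 differed between fasted genotypes by -0.41 ± 0.13 (adjusted p = 0.0161), with 0.08 and -0.23 on fasting in LWT and LKO. Egfl7, a secreted protein of vessels, was called in no comparison, with 0.28 ± 0.11 (adjusted p = 0.0516) in LWT and -0.14 ± 0.11 (adjusted p = 0.347) between fasted genotypes.

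All 6 receptors of the VEGF, angiopoietin and TGF-β families were lower in fasted LKO than in fasted LWT livers, and all 6 differed between their fasting changes. Of the 6, 4 rose and 0 fell on fasting in LWT, and 0 rose and 3 fell in LKO.

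Tek, which codes for the angiopoietin receptor TIE2 (probe at chr4:94540861-94540919, mm9, plus strand), rose in LWT and fell in LKO. Its levels were -1.15, -1.49, -1.22, -1.52 and -1.02 in LWT fed and -1.19, -0.71, -0.66, -0.72 and -0.59 in LWT fasted livers. In LKO livers they were -1.77 to -0.88 with a median of -1.51 fed and -2.09 to -1.72 with a median of -1.87 fasted. The fasted LKO animals were below all LWT animals, LWT fasted replicate 1 lay within the fed range, and LKO fed replicate 4 was the highest of its group. Tek changed by 0.51 ± 0.15 (adjusted p = 0.00911) in LWT and -0.45 ± 0.14 (adjusted p = 0.00888) in LKO. The fasted genotype difference, -1.10 ± 0.14 (adjusted p = 4.54e-06) or 2.14-fold, stood beside a difference of the changes of -0.96 ± 0.20 (adjusted p = 0.00244). Tie1, the related receptor that pairs with TIE2, changed by 0.05 ± 0.11 (adjusted p = 0.735) in LWT, -0.46 ± 0.10 (adjusted p = 0.00092) in LKO and -0.46 ± 0.11 (adjusted p = 0.00207) between fasted genotypes.

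Kdr codes for VEGF receptor VEGFR2, the main growth signal receptor of endothelium. It was 2.52, 2.37, 2.59, 2.27 and 2.61 in LWT fed and 2.39, 2.53, 2.63, 2.55 and 2.78 in LWT fasted livers. In LKO livers it was 2.04 to 2.65 with a median of 2.50 fed and 2.03 to 2.27 with a median of 2.14 fasted. The fasted LKO animals were below the fasted LWT animals and shared the range of LKO fed replicate 3, the lowest of the fed. Kdr changed by 0.10 ± 0.10 (adjusted p = 0.428) in LWT and -0.32 ± 0.09 (adjusted p = 0.00675) in LKO, with -0.44 ± 0.10 (adjusted p = 0.001) between fasted genotypes. The difference of its changes, -0.42 ± 0.14 (adjusted p = 0.0353), did not pass without any 1 of 10 animals and was -0.37 with adjusted p = 0.0706 without LWT fasted replicate 5.

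Flt4 codes for VEGFR3, the receptor of VEGF-C, found on lymphatic and sinusoidal endothelium. Its level was -2.90, -3.57, -3.04, -3.60 and -3.12 in LWT fed and -3.06, -2.58, -2.47, -2.36 and -2.19 in LWT fasted livers. In LKO livers it was -3.69 to -3.12 with a median of -3.33 fed and -3.94 to -3.04 with a median of -3.64 fasted. The fed and fasted LKO animals overlapped, and LWT fasted replicate 1 lay within the range of the LWT fed and LKO fasted animals. Flt4 changed by 0.71 ± 0.19 (adjusted p = 0.0043) in LWT and -0.21 ± 0.17 (adjusted p = 0.349) in LKO, with -1.01 ± 0.18 (adjusted p = 0.000186) between fasted genotypes and -0.92 ± 0.26 (adjusted p = 0.0165) for the difference of the changes. With normexp background correction these Flt4 values were smaller, 0.26 (adjusted p = 0.0205) in LWT, -0.40 (adjusted p = 0.000616) between fasted genotypes and -0.36 (adjusted p = 0.0339) for the difference, and in the deposited table they were 0.40, -0.57 and -0.47. Eng, or endoglin, the co-receptor for TGF-β and BMP9, changed by 0.43 ± 0.11 (adjusted p = 0.00274) in LWT, -0.21 ± 0.10 (adjusted p = 0.0777) in LKO and -0.60 ± 0.10 (adjusted p = 0.000107) between fasted genotypes.

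Flt1 codes for VEGFR1, which binds VEGF as a membrane receptor or a soluble decoy. It changed by 0.24 ± 0.09 (adjusted p = 0.0458) in LWT, -0.17 ± 0.09 (adjusted p = 0.108) in LKO and -0.40 ± 0.09 (adjusted p = 0.00162) between fasted genotypes. The rise in LWT did not pass without any 1 of 12 animals (0.19 with adjusted p = 0.128 without LWT fed replicate 4), nor the difference of the changes, -0.41 ± 0.13 (adjusted p = 0.0298), without any 1 of 6 (-0.36 with adjusted p = 0.0572 without LWT fed replicate 4). Its probes disagreed. The brightest, used here, matches the RefSeq transcript, while 2 dimmer probes matched to another transcript model of Flt1 showed fasting changes of 0.67 and 1.19 in LWT and 0.77 and 0.83 in LKO, and fasted genotype differences of -0.04 and -0.38. With the mean over its probes, Flt1 was called higher on fasting in LKO (0.48, adjusted p = 0.000755).

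The probes of 10 of the 41 genes could be compared in this way. For Stab2, 4 of 5 probes had fasted genotype differences of -0.38 to -0.60 and the fifth had 0.05. The Stab2 probes disagreed on which genotype moved on fasting. The brightest 2, of the RefSeq transcript, showed 0.29 and 0.41 in LWT with -0.02 and 0.03 in LKO, another probe showed -0.11 in LWT and -0.50 in LKO, and the dimmest 2 showed 0.17 and 0.13 in LWT with -0.15 and 0.21 in LKO. With the mean over its probes Stab2 still rose in LWT, by 0.18 (adjusted p = 0.0357). The second Vwf probe, dim, had 0.09 against -0.45 for the probe used. For Clec4g, Eng, Fcgr2b, Gpr182, Oit3, Ptprb and Ramp2 the second probe had the same direction in fasted animals as the first, from -0.17 for Ptprb to -1.24 for Fcgr2b. On fasting in LKO the second probe showed less of a fall for Clec4g (0.02, against -0.53) and Gpr182 (-0.18, against -0.60) and a near value for Fcgr2b (-0.47, against -0.51). The second Clec4g probe is dim, above background in 16 of 22 animals. With the mean over probes the falls in LKO were -0.25 (adjusted p = 0.0243) for Clec4g and -0.39 (adjusted p = 0.0195) for Gpr182.

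Of the 5 transcription factors, Sox17, Sox18 and Gata4 had calls. In LWT 1 of 5 rose and 0 fell on fasting, in LKO 0 rose and 3 fell, and 2 were lower in fasted LKO livers, those also differing between their changes. Sox17 and Sox18, with Sox7, are the SOXF factors of vessel identity. Sox18 (probe at chr2:181404789-181404848, mm9, minus strand) was -0.41, -1.27, -0.82, -1.20 and -0.72 in LWT fed and -0.83, -0.53, -0.40, -0.23 and -0.46 in LWT fasted livers. In LKO livers Sox18 was -1.11 to -0.59 with a median of -0.76 fed and -1.64 to -1.24 with a median of -1.40 fasted. The LWT groups overlapped, and the fasted LKO animals were below the LKO fed and the LWT fasted ones. Sox18 changed by 0.39 ± 0.14 (adjusted p = 0.0316) in LWT and -0.63 ± 0.13 (adjusted p = 0.000506) in LKO, with -0.92 ± 0.14 (adjusted p = 2.55e-05) between fasted genotypes and a difference of the changes of -1.02 ± 0.20 (adjusted p = 0.0011). The rise in LWT was lost without any 1 of 5 animals (0.30 with adjusted p = 0.104 without LWT fed replicate 2).

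Sox17 was -1.43, -1.83, -1.75, -1.71 and -1.65 in LWT fed and -1.58, -1.52, -1.44, -1.61 and -1.55 in LWT fasted livers. Its LKO levels were -1.84 to -0.68 with a median of -1.65 fed and -2.37 to -1.81 with a median of -2.12 fasted. LKO fed replicate 4 was far above its group, and the fasted LKO animals were below the fasted LWT ones. Sox17 changed by 0.13 ± 0.16 (adjusted p = 0.531) in LWT and -0.63 ± 0.15 (adjusted p = 0.00114) in LKO, with -0.57 ± 0.15 (adjusted p = 0.00532) between fasted genotypes and -0.77 ± 0.22 (adjusted p = 0.0175) for the difference of the changes. With normexp the Sox17 differences were -0.36 (adjusted p = 0.00778) between fasted genotypes and -0.50 (adjusted p = 0.0174) between the changes. Sox7 was called in no comparison, with 0.34 ± 0.22 (adjusted p = 0.229) in LWT, 0.08 ± 0.20 (adjusted p = 0.78) in LKO and -0.25 ± 0.21 (adjusted p = 0.382) between fasted genotypes. Erg, the ETS factor of endothelial identity, was also called in none, with -0.07 ± 0.14 (adjusted p = 0.721) in LWT, 0.09 ± 0.13 (adjusted p = 0.575) in LKO and 0.07 ± 0.13 (adjusted p = 0.711) between fasted genotypes. Gata4, the factor that sets the sinusoidal against the continuous vessel type, fell in LKO, changing by -0.46 ± 0.08 (adjusted p = 0.000101), with -0.21 ± 0.09 (adjusted p = 0.0665) in LWT and -0.12 ± 0.09 (adjusted p = 0.308) between fasted genotypes.

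The 4 angiocrine ligands had fasted genotype differences of -0.41 to 0.15. On fasting, 2 rose in LWT and 0 in LKO (0 with an unadjusted p below 0.05), 1 was lower in fasted LKO livers, and for none was the difference of the changes called by limma (1 with an unadjusted p below 0.05). Bmp2, the sinusoidal signal that induces hepcidin in hepatocytes, was 2.00, 1.80, 2.33, 1.54 and 2.20 in LWT fed and 2.29, 2.75, 2.83, 2.70 and 2.68 in LWT fasted livers. In LKO it was 1.58 to 2.30 with a median of 2.18 fed and 1.97 to 2.51 with a median of 2.28 fasted. The groups overlapped. Bmp2 changed by 0.68 ± 0.16 (adjusted p = 0.00198) in LWT and 0.19 ± 0.15 (adjusted p = 0.302) in LKO, with -0.41 ± 0.16 (adjusted p = 0.0451) between fasted genotypes, which did not pass without any 1 of 10 animals (-0.36 with adjusted p = 0.106 without LWT fasted replicate 3). The difference of the changes was -0.49 ± 0.22 (adjusted p = 0.137).

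Wnt2 and Wnt9b code for Wnt ligands of central vein and sinusoidal endothelium, and Rspo3 for their enhancer from the central vein. Wnt2 was 0.50, 0.51, 0.70, -0.07 and 0.38 in LWT fed and 0.17, 0.54, 0.77, 0.61 and 0.87 in LWT fasted livers. In LKO livers Wnt2 was -0.54 to 0.89 with a median of 0.68 fed and 0.52 to 1.15 with a median of 0.68 fasted. All groups overlapped, and LKO fed replicate 3 was far below the rest. Wnt2 changed by 0.19 ± 0.21 (adjusted p = 0.508) in LWT and 0.24 ± 0.20 (adjusted p = 0.327) in LKO, with 0.15 ± 0.21 (adjusted p = 0.616) between fasted genotypes. Wnt9b was -2.02, -2.24, -1.84, -2.47 and -1.64 in LWT fed and -2.02, -2.05, -2.11, -1.80 and -1.91 in LWT fasted livers. Its LKO levels were -2.90 to -1.82 with a median of -1.99 fed and -2.44 to -1.44 with a median of -1.76 fasted. These overlapped too, with 0.07 ± 0.20 (adjusted p = 0.813) in LWT, 0.26 ± 0.18 (adjusted p = 0.246) in LKO and 0.12 ± 0.19 (adjusted p = 0.663) between fasted genotypes. Rspo3 was 0.17, -0.11, -0.07, -0.28 and 0.25 in LWT fed and 0.28, 0.39, 0.36, 0.28 and 0.56 in LWT fasted livers. In LKO livers Rspo3 was -0.53 to 0.30 with a median of 0.05 fed and -0.22 to 0.31 with a median of 0.21 fasted. Its LWT groups lay apart by little. Rspo3 changed by 0.38 ± 0.15 (adjusted p = 0.0385) in LWT, which did not pass without any 1 of 6 animals (0.32 with adjusted p = 0.104 without LWT fed replicate 4), by 0.16 ± 0.13 (adjusted p = 0.354) in LKO, and by -0.23 ± 0.14 (adjusted p = 0.211) between fasted genotypes.

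Dll4 and Notch1 are a ligand and a receptor of Notch signalling in vessels. Dll4 (probe at chr2:119160779-119160838, mm9, plus strand) is the dimmest of these probes relative to background, passing in 16 of 22 animals. It was -3.32, -4.26, -3.61, -4.07 and -3.74 in LWT fed and -3.97, -3.40, -3.68, -3.28 and -3.53 in LWT fasted livers. In LKO livers Dll4 was -4.01 to -3.41 with a median of -3.68 fed and -4.90 to -4.28 with a median of -4.62 fasted. The fasted LKO animals were below all others, and the other 3 groups overlapped. Dll4 changed by 0.22 ± 0.17 (adjusted p = 0.306) in LWT and -0.94 ± 0.15 (adjusted p = 3.88e-05) in LKO, with -1.04 ± 0.16 (adjusted p = 3.77e-05) between fasted genotypes. The difference of its changes, -1.16 ± 0.23 (adjusted p = 0.00141), passed too. These sizes depend on how background is treated: with normexp the difference of the changes was -0.28 (adjusted p = 0.0286), the fall in LKO -0.31 (adjusted p = 0.000187) and the fasted difference -0.27 (adjusted p = 0.00184), and in the deposited table they were -0.49, -0.41 and -0.47. Of the fasted LKO animals 2 of 6 were above background for Dll4. Notch1 was called in no comparison, with -0.00 ± 0.21 (adjusted p = 0.996) in LWT, -0.26 ± 0.19 (adjusted p = 0.269) in LKO and -0.23 ± 0.20 (adjusted p = 0.392) between fasted genotypes.

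Thbd, which codes for the anticoagulant receptor thrombomodulin (probe at chr2:148230235-148230294, mm9, minus strand), was the gene of the 41 that was higher in fasted LKO livers. Its levels were -0.11, -0.57, -0.51, -0.77 and -0.20 in LWT fed and -0.03, 0.32, 0.26, 0.22 and 0.23 in LWT fasted livers. In LKO livers they were -0.79 to -0.14 with a median of -0.44 fed and 0.28 to 1.09 with a median of 0.81 fasted. Fed and fasted animals were apart in each genotype, and the fasted genotypes overlapped. Thbd rose by 0.63 ± 0.15 (adjusted p = 0.0018) in LWT and 1.15 ± 0.14 (adjusted p = 7.09e-07), 2.22-fold, in LKO, with 0.50 ± 0.14 (adjusted p = 0.00929) between fasted genotypes. Its difference of the changes was 0.52 ± 0.20 (adjusted p = 0.08). Of the other vessel genes, Vwf (von Willebrand factor) differed between fasted genotypes by -0.45 ± 0.11 (adjusted p = 0.00299) and the water channel gene Aqp1 by -0.50 ± 0.13 (adjusted p = 0.00486). Aqp1 is also made by cholangiocytes and red cell precursors. Plvap, which codes for the diaphragm protein of fenestrated vessels, was called in no comparison, with 0.22 ± 0.10 (adjusted p = 0.0863) in LWT and -0.20 ± 0.10 (adjusted p = 0.116) between fasted genotypes.

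Ligands of endothelial receptors, listed together with Csf1, a growth factor of macrophages, changed in a mixed way. The 16 symbols listed include Figf and Vegfd, which name the same gene. Of the 16, 13 were tested: 2 rose and 4 fell on fasting in LWT, and 4 rose and 4 fell in LKO. None was called in fed animals (2 with an unadjusted p below 0.05), and 4 were higher and 1 lower in fasted LKO livers. Of all genes, 23.1% rose and 21.2% fell in LWT, and 23% rose and 26.7% fell in LKO. Between fasted genotypes 16.5% of all genes were called higher in LKO and 21.4% lower. Adm, which codes for adrenomedullin, the ligand of the receptor that contains RAMP2, rose by 1.35 ± 0.13 (adjusted p = 1.18e-07) in LWT and 0.51 ± 0.12 (adjusted p = 0.00163) in LKO and was lower in fasted LKO livers, with a difference of -0.80 ± 0.13 (adjusted p = 5.16e-05). Vegfb fell in both genotypes, changing by -1.19 ± 0.15 (adjusted p = 2.37e-06) in LWT and -0.44 ± 0.14 (adjusted p = 0.0111) in LKO, and was higher in fasted LKO livers by 0.83 ± 0.14 (adjusted p = 0.000123). Figf, the gene of VEGF-D, rose by 1.22 ± 0.20 (adjusted p = 4.23e-05) in LWT and 1.63 ± 0.18 (adjusted p = 2.96e-07) in LKO. Jag1, a Notch ligand, changed by -0.72 ± 0.13 (adjusted p = 0.00015) in LWT and -0.70 ± 0.12 (adjusted p = 6.17e-05) in LKO. Dll1, another Notch ligand, was higher in fasted LKO livers by 0.61 ± 0.17 (adjusted p = 0.00675) and differed in its changes by 0.97 ± 0.24 (adjusted p = 0.00698). Vegfa, the main ligand of VEGFR2, was at -0.10 ± 0.06 (adjusted p = 0.25) between fasted genotypes.

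Targets of the angiocrine signals were counted as well. The shares of all genes called are those given for the ligands, with 1.77% higher and 2.25% lower in fed LKO livers. Of 15 hepatocyte genes that depend on Wnt signals around the central vein, 1 rose and 6 fell on fasting in LWT, 6 rose and 3 fell in LKO, none was called in fed animals (1 with an unadjusted p below 0.05), and 5 were higher and 0 lower in fasted LKO livers. Among them Cyp1a2, a drug-metabolising enzyme, differed between fasted genotypes by 1.33 ± 0.18 (adjusted p = 6.45e-06), Axin2, a feedback inhibitor of the pathway, by 0.85 ± 0.24 (adjusted p = 0.00835), and Lect2, a secreted protein, by 0.80 ± 0.15 (adjusted p = 0.000233). Of 9 targets of BMP signals, 1 rose and 1 fell in LWT, 3 rose and 1 fell in LKO, 1 was higher in fed LKO and 2 in fasted LKO livers. Hamp2, a hepcidin gene, changed by -2.29 ± 0.37 (adjusted p = 3.96e-05) in LWT and -2.04 ± 0.34 (adjusted p = 3.99e-05) in LKO, and Id1, a direct target, rose by 1.49 ± 0.34 (adjusted p = 0.00145) and 1.02 ± 0.31 (adjusted p = 0.0103). Hamp2 also had the largest genotype differences of the list, being higher in LKO by 1.52 in fed and 1.77 in fasted livers. Hamp2 and Hamp are near-identical copies whose probes may share signal, and Hamp was at 0.29 ± 0.14 (adjusted p = 0.11) in LWT and -0.08 ± 0.13 (adjusted p = 0.636) in LKO. Of 8 listed Notch targets and receptors 6 were tested: 2 rose and 2 fell in LWT, 0 rose and 1 fell in LKO, and 1 was higher and 2 lower in fasted LKO livers. Hes1, a direct Notch target that other signals also induce, rose by 1.65 ± 0.32 (adjusted p = 0.000242) in LWT, with 0.12 ± 0.29 (adjusted p = 0.769) in LKO and -0.81 ± 0.30 (adjusted p = 0.0409) between fasted genotypes. Notch4, the receptor of endothelium, rose by 0.69 ± 0.12 (adjusted p = 7.32e-05) in LWT and was lower in fasted LKO livers, with a difference of -0.46 ± 0.11 (adjusted p = 0.00303).

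Markers of other liver cells were read in the same animals. Their counts between fasted genotypes stand beside 16.5% of all genes called higher in LKO and 21.4% lower. Of 9 hepatocyte markers none was called between fasted genotypes by limma (1 with an unadjusted p below 0.05), and their mean level was 9.06 to 9.14 in LWT fasted and 9.05 to 9.16 in LKO fasted animals. Of 14 macrophage markers 1 was higher and 1 lower, with mean levels of 1.59 to 2.32 and 1.90 to 2.44. Cd14, the co-receptor for endotoxin, was the higher one, at 1.01 ± 0.14 (adjusted p = 6.45e-06), and Vsig4, the complement receptor of Kupffer cells, the lower one, at -0.45 ± 0.16 (adjusted p = 0.035). Of 15 stellate cell markers 1 was higher and 1 lower, with 0.85 to 1.28 in LWT fasted and 0.65 to 1.18 in LKO fasted animals, and a median difference of -0.15. Of these 15 stellate markers 2 were above 0 between fasted genotypes and 1 in the difference of the fasting changes, whose median was -0.21 with 1 marker called higher and 0 lower. For comparison, 4 of the 41 endothelial genes were above 0 in each of these comparisons. Of 8 cholangiocyte markers 2 were higher and 0 lower, and of 10 lymphocyte markers 1 was higher and 0 lower. Of 8 neutrophil and monocyte markers 1 was higher and 0 lower, of 5 red blood cell markers 2 were higher and 0 lower, and of 2 mesothelial markers none was called (0 with an unadjusted p below 0.05). Their part in the differences of the endothelial genes was not tested. The endothelial genes thus stood at a median of -0.44 between fasted genotypes, where the medians of these 8 lists were between -0.15 and 0.31.

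**Figure D5:**
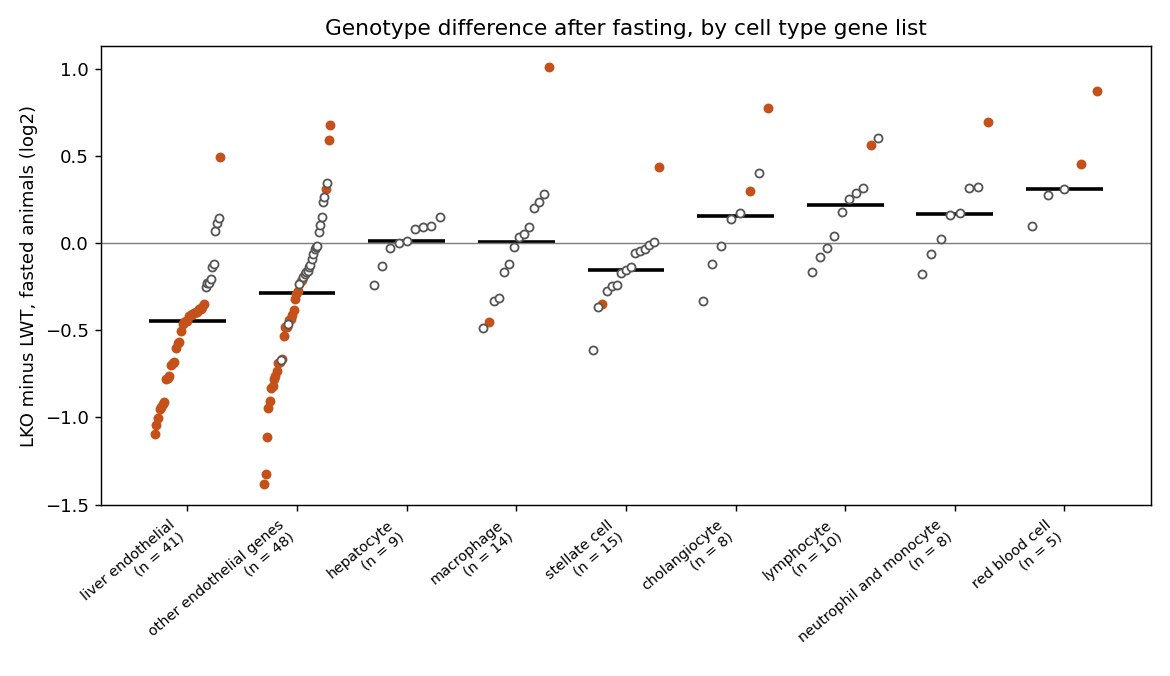
Difference between fasted LKO and fasted LWT livers (log2) of each gene of 9 cell type lists (points; filled where the adjusted p is below 0.05), with the median of the list (line). Of the 41 liver endothelial genes 31 are called lower and 1 higher, of the 48 other endothelial genes 25 lower and 3 higher, and of the 9 hepatocyte markers none.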

How the data were processed

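Whole liver RNA was read on 1-colour Agilent arrays with a probe design annotated on mm9. Per the file headers, the deposited scanner files were made with Agilent Feature Extraction 10.10.1.1, and the processed intensity of a spot is background-subtracted. A log2 table deposited by the authors, which per the submitters' processing notes came from limma, has the same distribution in every column, as quantile normalization gives, and averages repeat arrays; it was used as an alternative. The endothelial genes and all gene lists were chosen with earlier results of these data known.

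For the report, log2 of the processed intensity was reduced by the log2 of each array's 75th percentile, and arrays of 1 animal were averaged. Probes well above background in at least 5 of 22 animals were kept (28138 of 46291 with a symbol), and the brightest kept probe stood for its gene. A mean per group was fitted with limma 3.58.1 (R 4.3.3), with 5 comparisons and Benjamini-Hochberg adjustment over 17215 genes. Tested on simulated data of these 17215 genes for fasting in LWT, the fit recovered 46% of 100 genes changed by 0.5 and 82% of 100 changed by 1 on the log2 scale. No other genes were changed there, whereas in the data 23.1% of genes were called higher and 21.2% lower. A call thus needed a smaller unadjusted p in the simulation, and its shares do not give the power in the data. The number of animals limits the precision. Levels of each LWT animal, and the range and median of each LKO group, are given for 23 genes. These are, per comparison, the up to 6 called genes with the largest changes, and a panel of 14. Of other lists, up to 3 called genes per comparison could be named, and Vegfa and Hamp were added after their values were seen. Gene names of the 41 probes matched RefSeq's table (GRCm38.p6) in 41 of 41 by transcript. Alternatives were normexp (offset 50), quantile normalization, the deposited table, no filter on dim probes, the mean over probes, the slide or replicate number as a block, within slides, 1 array per animal, and leaving out each animal.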

Additional observations from a re-analysis of the deposited data

Results flagged for a closer look

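Of 164 sets of levels, 1 per gene and group, 17 had an animal whose gap to the nearest other was large for the range of its group (Dixon's criterion); chance marks about 1 in 20, or 8.2 of 164, and genes of 1 animal are not independent. LWT fasted replicate 1 was the low animal in 9 of them: Gpr182 (3.27), Stab1 (2.77), Oit3 (2.10), Mrc1 (2.07), Cdh5 (0.49), Emcn (-0.0668), Icam2 (1.30), Tek (-1.19) and Bmp2 (2.29). LKO fed replicate 3 was the low animal for Wnt2 (-0.54), Wnt9b (-2.90) and Vwf (0.56). The others were Lyve1 in LKO fasted replicate 5 (0.14, high), Stab1 in LKO fasted replicate 1 (2.41, low), Tie1 in LWT fed replicate 4 (-0.76, low) and LKO fed replicate 4 (-0.0833, high), and Erg in LKO fasted replicate 4 (-1.66, high).

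The fasting change differed between the genotypes for 21 genes by limma's test of the difference itself, LKO minus LWT. It was below -0.9 for Dll4 (-1.16), Sox18 (-1.02), Tek (-0.96), Clec4g (-0.94) and Flt4 (-0.92). It followed for Oit3 (-0.87), Fcgr2b (-0.77), Mrc1 (-0.77), Sox17 (-0.77), Lyve1 (-0.76), Gpr182 (-0.75), Ehd3 (-0.70) and Emcn (-0.70). It was between -0.68 and -0.40 for Robo4 (-0.67), Eng (-0.64), Cldn5 (-0.61), Tie1 (-0.51), Pecam1 (-0.49), Ptprb (-0.46), Kdr (-0.42) and Flt1 (-0.41).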

How the results depend on the processing

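Over every alternative run, each including all 41 genes, the counts of called genes stayed within 1.5 times those reported. Leaving out 1 animal gave 14 to 25 called genes for fasting in LWT, 18 to 25 for fasting in LKO, 0 for the fed genotypes, 30 to 33 for the fasted genotypes and 17 to 28 for the difference of the fasting changes. The 5 medians moved by less than the spread between animals, except that of fasting in LKO within slide 1 (-0.0094, against -0.21); the cause was not tested. Replicate numbers do not pair the animals: of 31 same-numbered pairs 5 had correlated deviations over 0.1, from -0.18 to 0.18. With the replicate block, 18 genes were called for fasting in LWT, 18 for fasting in LKO, 0 fed, 30 fasted and 17 for the difference. Calls kept under all alternatives numbered 14 of 21 (fasting in LWT), 18 of 18 (fasting in LKO), 28 of 32 (fasted genotypes) and 16 of 21 (difference).

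Beside the losses without 1 animal given above and those under the replicate block, calls were lost as follows. Fasting in LWT lost Emcn, Flt1, Rspo3 and Sox18 without the filter on dim probes, Flt1 and Rspo3 in the deposited table, and Flt1 with 1 array per animal. The fasted genotypes lost Bmp2 with quantile normalization, without the filter and with 1 array per animal, and Flt1 and Vwf with the mean over probes (Vwf -0.18, adjusted p = 0.448). The difference lost Ehd3, Flt1, Kdr and Pecam1 without the filter, Pecam1 with quantile normalization or the slide as a block, Kdr with 1 array per animal, Tie1 in the deposited table and Flt1 with the mean over probes. Flt1 on fasting in LKO turned from -0.17, not called, to 0.48 (adjusted p = 0.000755) with the mean over its probes, which includes probes of another transcript model. Signal over background limits Dll4, measured above background in 16 of 22 animals, 2 of them fasted LKO, and Flt4: normexp and the deposited table kept their calls but moved their called values by over 1.5 times, as given with each gene (Dll4 difference of the changes -1.16, -0.28 with normexp and -0.49 in the deposited table; Flt4 -0.92, -0.36 and -0.47). Normexp moved values of Pecam1 and Sox17, and the mean over probes those of Clec4g, Flt1, Gpr182, Stab2 and Vwf, by over 1.5 times too.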

Other observations

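Endothelial genes outside the 41 were read from a second list, of which 48 of 53 symbols were tested. On fasting, 21 rose and 3 fell in LWT and 11 rose and 11 fell in LKO. Of all genes, 23.1% were called higher and 21.2% lower in LWT, and 23% and 26.7% in LKO. The counts in LKO are thus near the shares of all genes. Between fasted genotypes 3 were higher and 25 lower in LKO, with a median difference of -0.28, and 2 of 48 differed upward and 13 downward in their fasting changes. The shares of all genes were 16.5% higher and 21.4% lower between fasted genotypes, and 7.5% upward and 11.1% downward for the difference. Clec14a, an endothelial surface lectin-like protein, differed between fasted genotypes by -1.38 ± 0.14 (adjusted p = 1.83e-07), Adgrl4, an adhesion receptor of vessels, by -1.32 ± 0.15 (adjusted p = 6.71e-07), and Nrp1, the co-receptor of VEGF, by -1.11 ± 0.14 (adjusted p = 3.73e-06). Their median of -0.28 was nearer 0 than the -0.44 of the 41 genes.

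In the same second list S1pr1, the sphingosine-1-phosphate receptor that keeps vessels closed, fell, changing by -1.64 ± 0.14 (adjusted p = 2.27e-08) in LWT and -1.87 ± 0.13 (adjusted p = 8.77e-10) in LKO. Adgrf5, another adhesion receptor of vessels, rose by 1.45 ± 0.17 (adjusted p = 1.15e-06) in LWT. Bcl6b, a transcriptional repressor of endothelium, had fasting changes of -0.41 ± 0.17 (adjusted p = 0.0518) in LWT and 0.67 ± 0.15 (adjusted p = 0.00108) in LKO, which differed by 1.08 ± 0.23 (adjusted p = 0.00237). In fed animals 1 of the 48 was called, Nr2f2, the factor of venous identity, at -0.33 ± 0.09 (adjusted p = 0.0437). Of all genes, 1.77% were called higher and 2.25% lower in fed LKO livers.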
